A study of Mus musculus with 6 samples.

Results

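Amino acid transporters of the plasma membrane were followed at the RNA level in cultured CD4+ T cells of the mouse, lymphocytes that help other immune cells once their antigen receptor is engaged. The 10 transporters were named carriers, Slc7a5, Slc3a2, Slc1a5, Slc1a4, Slc38a1, Slc38a2, Slc7a1, Slc7a6, Slc7a11 and Slc43a1, picked by symbol and matched to Ensembl identifiers in the annotation GENCODE M21, and all 10 were among the 48440 genes of the count table. The stimulated group (3 libraries) was exposed to antibodies against CD3 and CD28 for 4 hours, and the unstimulated group (3 libraries) was kept at rest. All cells were taken from wild-type mice (spleen and lymph nodes), had been primed for 3 days on plates coated with the same antibodies and had then grown for 5 days in interleukin 2. The unstimulated cells were therefore previously activated, cytokine-expanded cells and not naive ones. The labels give no strain, sex or age, nor whether a replicate was a mouse or a culture, and p-values thus cover only the variation among these libraries, possibly technical.

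A cell can only make protein as fast as it can gather amino acids, and most amino acids cross the plasma membrane on solute carriers. Slc7a5 (LAT1) is the light chain that exchanges leucine and other large neutral amino acids for glutamine, and it reaches the surface only when bound to the heavy chain Slc3a2 (CD98). Slc1a5 (ASCT2) and its relative Slc1a4 (ASCT1) exchange small neutral amino acids with sodium, Slc38a1 and Slc38a2 (SNAT1 and SNAT2) bring in glutamine, alanine and similar amino acids with sodium, and Slc7a1 (CAT1) brings in arginine and lysine. In T cells, uptake through Slc7a5 is known to be needed for growth after antigen receptor engagement.

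Each library held between 29897720 and 30252923 counted reads, and 3 reads, the floor used here, came to between 0.0943 and 0.106 CPM. All 6 T cell markers checked (Cd3d, Cd3e, Cd3g, Trac, Cd4 and Cd5) had reads, summing to between 1532 and 1562 CPM in stimulated libraries and between 3212 and 3479 CPM in unstimulated ones, and all 6 fell. The 2 CD8 T cell markers summed to between 20.7 and 25.8 CPM in stimulated and between 20.9 and 24.8 CPM in unstimulated libraries. Of these 1 rose and 1 fell. The 4 B cell markers summed to between 24.2 and 25.7 CPM in stimulated and between 61.8 and 65.1 CPM in unstimulated libraries, and all 4 fell. The 5 myeloid markers, of which 1 rose and 2 fell, stayed at or below 7.29 CPM. The 3 erythroid markers, of which 1 fell, stayed at or below 1.63 CPM, and the 3 NK cell markers at or below 0.19 CPM. All of these markers had at least 1 read. The part of these other cells in the results was not tested. In bulk RNA, fewer cells of a type and less RNA per cell cannot be told apart.

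RefSeq start-site windows on GRCm38.p6 were at hand for 7 of the 10 genes, namely Slc3a2, Slc1a4, Slc38a2, Slc7a1, Slc7a6, Slc7a11 and Slc43a1, while Slc7a5, Slc1a5 and Slc38a1 were not matched. Each window held 250 bases before the start and 50 after it. They were searched on both strands for CACGTG, the E-box bound by Myc and its relatives, for TGATGNAA, the core of the element bound by C/EBP and ATF4 dimers when amino acids run short, and for TGACNNNGC, the core of the antioxidant response element. The C/EBP-ATF core was found in 3.97% of all 32851 windows, the E-box in 7.15% and the antioxidant core in 12.4%. Promoters of the members with a C/EBP-ATF core or an E-box are printed here from 5′ to 3′ in the gene's direction, with matched letters in capitals. Slc7a11 (chr3:50443614-50443863, minus strand) and Slc43a1 (chr2:84840073-84840322, plus strand) are shown up to the base before the start, and Slc1a4 (chr11:20332710-20332963, minus strand) up to the end of a match that crosses the start.
Slc7a11: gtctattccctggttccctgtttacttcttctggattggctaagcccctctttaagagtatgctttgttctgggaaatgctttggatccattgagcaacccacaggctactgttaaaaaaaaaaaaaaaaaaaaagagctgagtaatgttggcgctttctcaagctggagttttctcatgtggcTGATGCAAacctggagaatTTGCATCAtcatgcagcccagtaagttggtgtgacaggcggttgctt
Slc1a4: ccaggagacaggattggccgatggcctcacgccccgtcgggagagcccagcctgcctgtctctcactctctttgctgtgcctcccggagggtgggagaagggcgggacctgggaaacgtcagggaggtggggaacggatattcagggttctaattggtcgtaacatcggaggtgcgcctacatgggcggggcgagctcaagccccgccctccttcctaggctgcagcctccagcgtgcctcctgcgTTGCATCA
Slc43a1: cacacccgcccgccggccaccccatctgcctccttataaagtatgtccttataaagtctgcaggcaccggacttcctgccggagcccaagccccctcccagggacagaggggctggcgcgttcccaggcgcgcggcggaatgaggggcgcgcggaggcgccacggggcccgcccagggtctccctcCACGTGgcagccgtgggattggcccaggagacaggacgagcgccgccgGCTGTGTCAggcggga

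Slc7a11, the cystine carrier, had a pair of C/EBP-ATF cores in opposite orientations, beginning at positions -66 and -47 from its start. Slc1a4 had 1 such core, which began at -4 and ran across the start. Slc43a1 had an E-box at -64 and an antioxidant core at -16, and antioxidant cores were also found in Slc38a2 at -27, in Slc7a1 at -11 and in Slc7a6 at -1, or at -68 from a second annotated start. None of the 3 motifs was found in the window of Slc3a2. No match of 1 motif overlapped a match of another, and CACGTG reads the same on both strands, so that it counts once. These are letter matches in a fixed window and say nothing of binding.

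Restimulation raised 9 of the 10 transporters and lowered 1, Slc38a2 (edgeR's quasi-likelihood test over 13314 genes, adjusted p under 0.05). The rise was past 2-fold, tested against that size with glmTreat, for 6 of them: Slc7a5, Slc3a2, Slc1a5, Slc1a4, Slc7a1 and Slc7a6. Of all tested genes 38.4% rose and 39.1% fell, 17.4% rose past 2-fold and 18.2% fell past 2-fold. The median log2 fold change of the transporters was 2.15, beside -0.043 over all tested genes. In all, 77.5% of tested genes were called in either direction. The stimulated libraries all lay above the unstimulated ones for 9 transporters and all below them for 1, beside 39.4% and 40.4% of tested genes, or 79.8% for either. Library size alone as the scaling moved the median of all genes by -0.139, and it ended the call of Slc7a11 (adjusted p = 0.0592). Rises and falls are relative to the other counted RNA of a library, and change per cell was not tested. All 10 passed the filter on low counts, Slc7a11 through its stimulated libraries alone, and of the 9 others 8 rose.

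**Figure D1:**
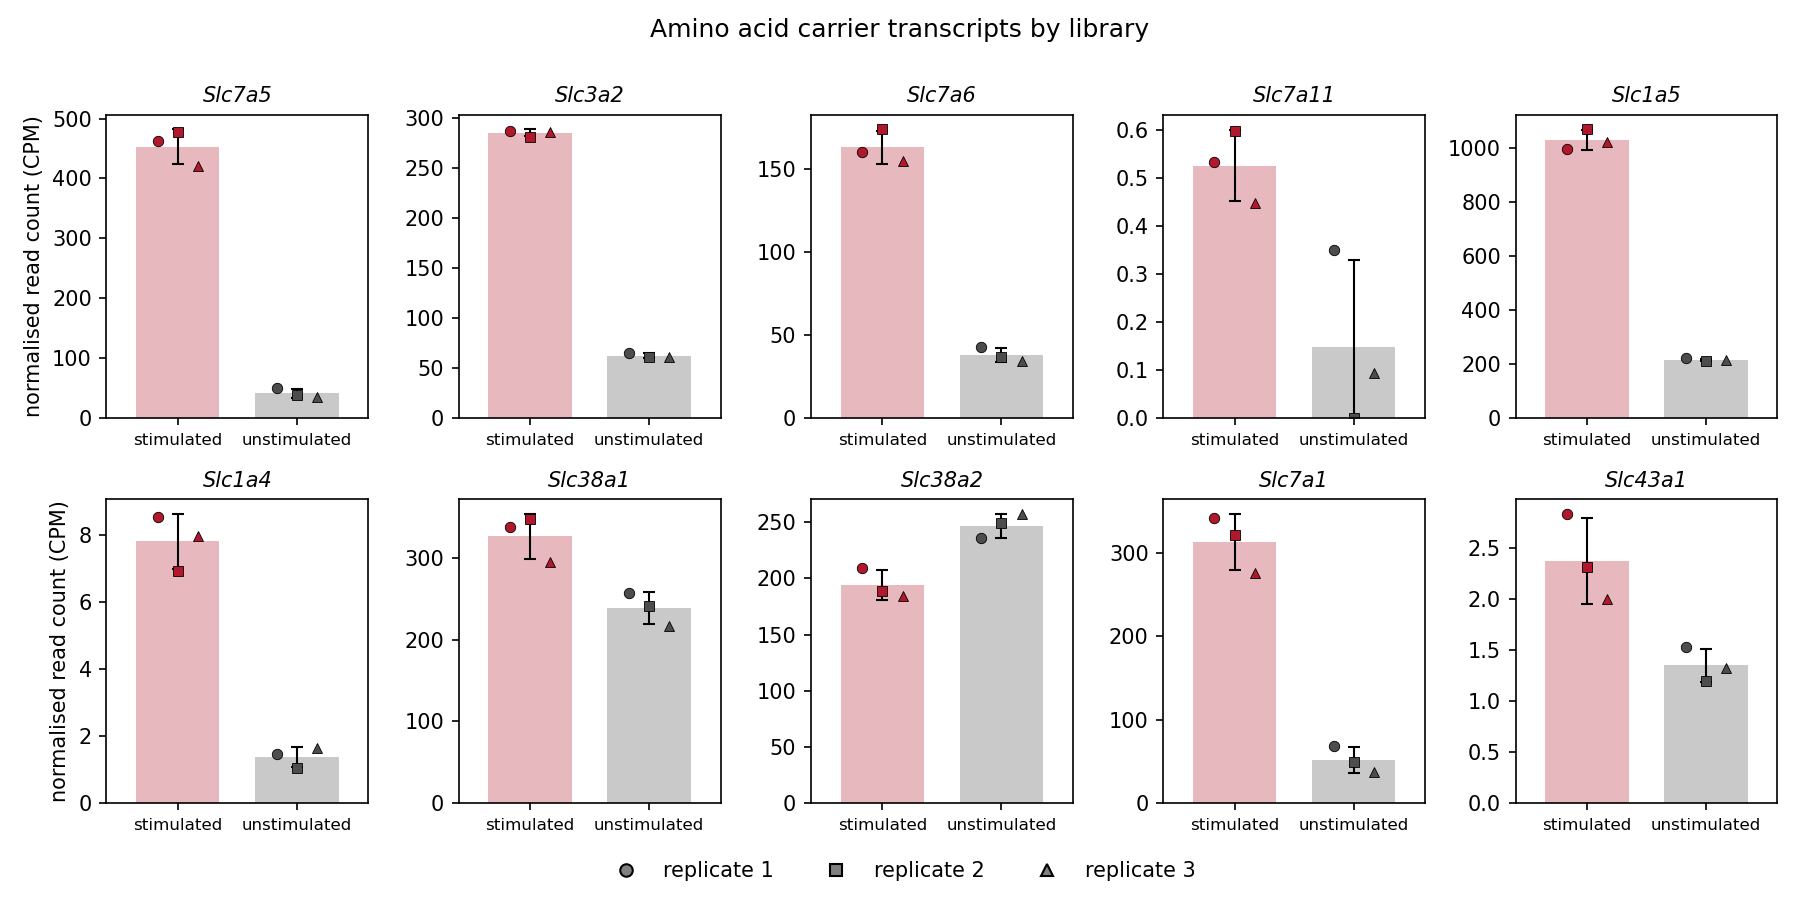
Normalised read count (CPM) of each transporter in each library, with stimulated cells in red on the left and unstimulated cells in grey on the right of every panel. Bars are means, error bars SD (n = 3), and marker shapes give the replicate number. The axes start at 0, which cuts the lower error bar of Slc7a11 in unstimulated cells, and differ between panels. The stimulated libraries lie above the unstimulated ones for 9 genes and below them for Slc38a2.

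Among the heavy chain and its light chains, the largest change was that of the leucine carrier. Slc7a5 (ENSMUSG00000040010, chr8:121881150-121907694, GRCm38) had 463, 477 and 420.0 CPM in stimulated libraries, against 49.6, 38.9 and 35.0 CPM in unstimulated ones. The groups did not overlap, and among the resting libraries replicate 1 was the highest. Means were 453 ± 29.6 CPM in stimulated and 41.2 ± 7.55 CPM in unstimulated cells (SD, n = 3 each), an 11.0-fold rise and the largest fold of mean CPM among the 10 (log2 fold change 3.46, SE 0.13; edgeR, adjusted p = 4.52e-08).

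Slc3a2, the heavy chain (ENSMUSG00000010095, chr19:8706882-8723369), had 287, 281 and 286 CPM in stimulated libraries, against 65.5, 60.9 and 60.6 CPM in unstimulated ones. Both groups were tight and stood apart. The rise was 4.57-fold (log2 fold change 2.19, SE 0.065; edgeR, adjusted p = 9.77e-09). Set against its heavy chain, Slc7a5 gained in proportion in every stimulated library. There were 1.61, 1.70 and 1.47 reads of Slc7a5 for each read of Slc3a2 in stimulated cells, against 0.757, 0.638 and 0.578 in unstimulated cells. This ratio differed by 1.28 on the log2 scale (two-sided exact permutation test over libraries, p = 0.1, the smallest that 3 against 3 allows; adjusted over 5 pairs, p = 0.167), and a ratio within a library does not depend on the scaling.

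Slc7a6 (y+LAT2), a light chain that exchanges cationic for neutral amino acids (ENSMUSG00000031904, chr8:106168857-106198706), had 160.3, 174 and 155 CPM in stimulated libraries, against 42.8, 36.7 and 34.5 CPM in unstimulated ones. The groups did not overlap, with resting replicate 1 again the highest. It rose 4.30-fold (log2 fold change 2.10, SE 0.095; edgeR, adjusted p = 8.53e-08).

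Slc7a11 (xCT), the light chain that takes up cystine and releases glutamate (ENSMUSG00000027737, chr3:49892526-50443614), was barely detected. It had 15, 17 and 13 reads in stimulated libraries, against 11, 0 and 3 reads in unstimulated ones, or 0.532, 0.597 and 0.448 CPM against 0.350, 0 and 0.0943 CPM. Most resting reads lay in unstimulated replicate 1, and the 0 of replicate 2 allows up to 0.0948 CPM, the level of 3 reads. Summed over libraries the ratio was 3.56 (95% exact counting interval 1.92 to 7.02), which covers counting error only. Leaving out unstimulated replicate 1 made it 11.1 (3.56 to 55.9), and leaving out unstimulated replicate 2 made it 2.37 (1.28 to 4.68). The adjusted p in edgeR was 0.0462, with alternatives between 0.00218 and 0.168, and the call was lost in 10 of 16 of them.

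Among the neutral amino acid exchangers, Slc1a5 (ENSMUSG00000001918, chr7:16781340-16798274) had 996, 1069 and 1020.2 CPM in stimulated libraries, against 221, 212 and 216 CPM in unstimulated ones. The groups stood far apart with little spread in either. It rose 4.75-fold (log2 fold change 2.25, SE 0.058; edgeR, adjusted p = 6.12e-09).

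Slc1a4 (ENSMUSG00000020142, chr11:20302180-20332713) had 8.54, 6.92 and 7.96 CPM in stimulated libraries, against 1.46, 1.04 and 1.63 CPM in unstimulated ones. It was low in both groups, which did not overlap. It rose 5.66-fold (log2 fold change 2.5, SE 0.20; edgeR, adjusted p = 3.15e-06). There were 117, 155 and 128 reads of Slc1a5 for each read of Slc1a4 in stimulated libraries, against 151, 204 and 132 in unstimulated ones. These ranges overlapped, and the log2 ratio differed by -0.26 (two-sided exact permutation test, p = 0.4; adjusted over 5 pairs, p = 0.5). With same-numbered libraries as pairs, the ratio was lower in the stimulated library of 3 of 3 pairs, and the exact sign-flip test gave p = 0.25, the smallest that 3 pairs allow.

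The sodium-coupled glutamine carriers moved least, and in opposite directions. Slc38a1 (ENSMUSG00000023169, chr15:96571418-96642913) had 338, 348 and 296 CPM in stimulated libraries, against 257, 242 and 217 CPM in unstimulated ones. The groups did not overlap, though the gap between the lowest stimulated and the highest unstimulated library was narrow. The rise was 1.37-fold (log2 fold change 0.46, SE 0.088; edgeR, adjusted p = 0.00117).

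Slc38a2, its neighbour on the same strand (ENSMUSG00000022462, chr15:96687392-96699730), had 209, 189 and 184 CPM in stimulated libraries, against 236, 249 and 257 CPM in unstimulated ones. All stimulated libraries were below all unstimulated ones. It fell to 194 ± 13.6 CPM in stimulated cells, against 247 ± 10.7 CPM in unstimulated cells (log2 fold change -0.35, SE 0.073; edgeR, adjusted p = 0.00186). Dropping replicate 2 from both groups ended the call (adjusted p = 0.0519; alternatives between 0.000142 and 0.0519). Reads of Slc38a1 for each read of Slc38a2 numbered 1.61, 1.84 and 1.61 in stimulated libraries, against 1.09, 0.972 and 0.846 in unstimulated ones. The log2 ratio differed by 0.81 (two-sided exact permutation test, p = 0.1; adjusted over 5 pairs, p = 0.167).

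Slc7a1, the main arginine and lysine importer of most cells (ENSMUSG00000041313, chr5:148327410-148399904), had 342, 321 and 276 CPM in stimulated libraries, against 68.1, 49.2 and 36.5 CPM in unstimulated ones. The resting libraries differed from each other more than for the other abundant carriers, and replicate 3 was the lowest in both groups. It rose 6.11-fold (log2 fold change 2.61, SE 0.22; edgeR, adjusted p = 2.17e-05). Set against Slc7a6, there were 2.13, 1.84 and 1.78 reads of Slc7a1 per read in stimulated libraries, against 1.59, 1.34 and 1.06 in unstimulated ones. The difference of the log2 ratio was 0.54 (two-sided exact permutation test, p = 0.1; adjusted over 5 pairs, p = 0.167).

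Slc43a1 (LAT3), a facilitated carrier of branched-chain amino acids that needs no partner chain (ENSMUSG00000027075, chr2:84838850-84863594), had 2.84, 2.32 and 2.00 CPM in stimulated libraries, against 1.53, 1.20 and 1.32 CPM in unstimulated ones. It was near the low end in both groups, which did not overlap. The change was 1.77-fold (log2 fold change 0.82, SE 0.23; edgeR, adjusted p = 0.00845), and dropping replicate 2 from both groups ended the call (adjusted p = 0.0821; alternatives between 0.00424 and 0.0821).

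**Figure D2:**
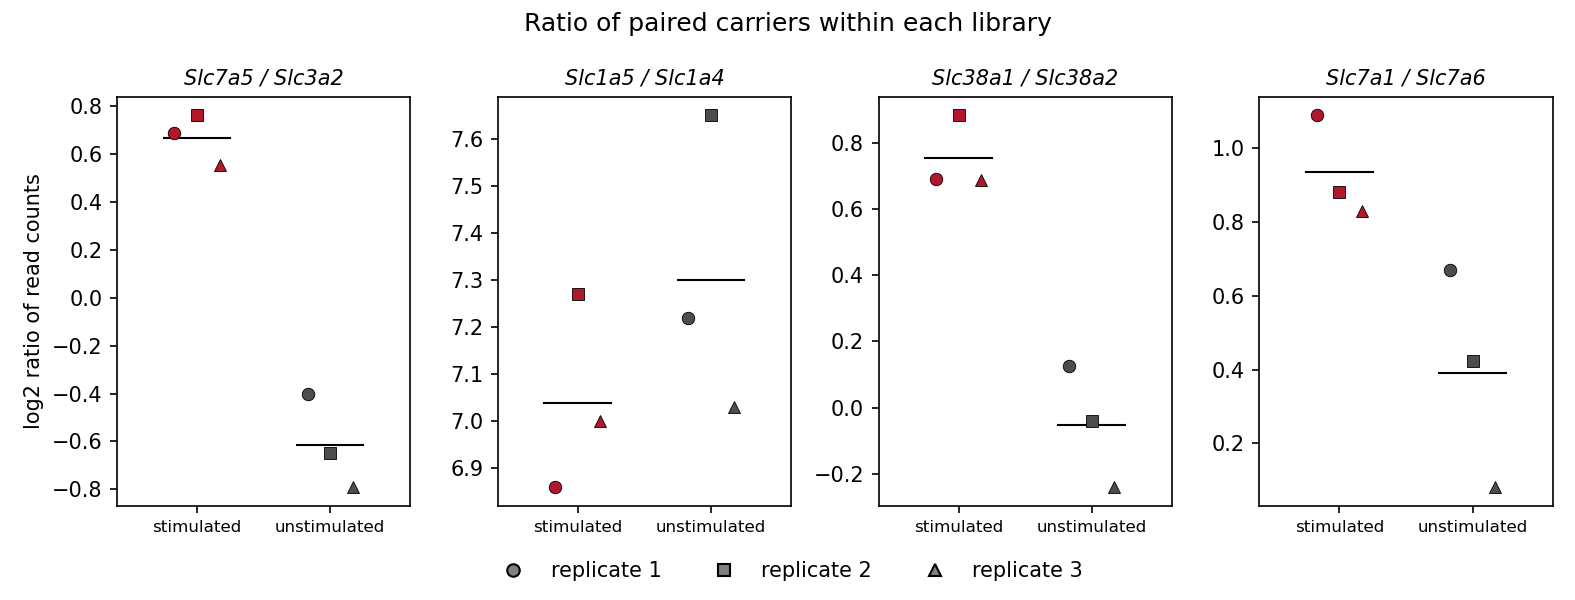
Log2 ratio of read counts of 4 pairs of carriers in each library, stimulated cells in red on the left and unstimulated cells in grey on the right of each panel. Horizontal lines are means of 3 libraries, marker shapes give the replicate number, and axes differ between panels. The groups stand apart for Slc7a5 over Slc3a2, Slc38a1 over Slc38a2 and Slc7a1 over Slc7a6, and overlap for Slc1a5 over Slc1a4.

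The remaining pair, Slc7a11 over Slc7a5, had too few Slc7a11 reads to give a direction. Its log2 ratio differed by -0.83 (two-sided exact permutation test, p = 0.7; adjusted over 5 pairs, p = 0.7) and was 0.077 without unstimulated replicate 1. The overlapping annotated genes at Slc7a5 and Slc7a11 had 0 reads in all 6 libraries, and the other 8 transporters overlapped no annotated gene.

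Levels were compared between genes as CPM per kilobase of annotated exon. In stimulated cells the order was Slc1a5 (246 ± 8.86 CPM per kilobase), Slc7a5 (122 ± 7.98), Slc3a2 (80.7 ± 1.02), Slc7a6 (35.7 ± 2.14), Slc7a1 (27.1 ± 2.93), Slc38a2 (21.9 ± 1.54), Slc38a1 (19.0 ± 1.61), Slc1a4 (1.99 ± 0.21), Slc43a1 (0.417 ± 0.0739) and Slc7a11 (0.0377 ± 0.00536). The neighbours Slc38a2 and Slc38a1 lay within their summed SD of each other. The place of Slc38a1 depends on the length used. Per kilobase of its longest transcript it had 45.0 ± 3.82 CPM in stimulated cells. By the same rule Slc7a1 had 43.6 ± 4.71, Slc7a6 43.5 ± 2.61 and Slc38a2 31.7 ± 2.22. Slc38a1, Slc7a1 and Slc7a6 were then within their summed SD of each other, and Slc38a2 was lower. In unstimulated cells the order by annotated exon was Slc1a5 (51.8 ± 1.00 CPM per kilobase), Slc38a2 (28.0 ± 1.21), Slc3a2 (17.7 ± 0.766), Slc38a1 (13.8 ± 1.15), Slc7a5 (11.1 ± 2.03), Slc7a6 (8.31 ± 0.944), Slc7a1 (4.44 ± 1.38), Slc1a4 (0.352 ± 0.0775), Slc43a1 (0.236 ± 0.0289) and Slc7a11 (0.0106 ± 0.0130). Here Slc38a1 and Slc7a5, and Slc7a5 and Slc7a6, were within their summed SD. Slc1a5 led in both groups, and Slc7a5 held rank 2 in stimulated cells and rank 5 in unstimulated ones.

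**Figure D3:**
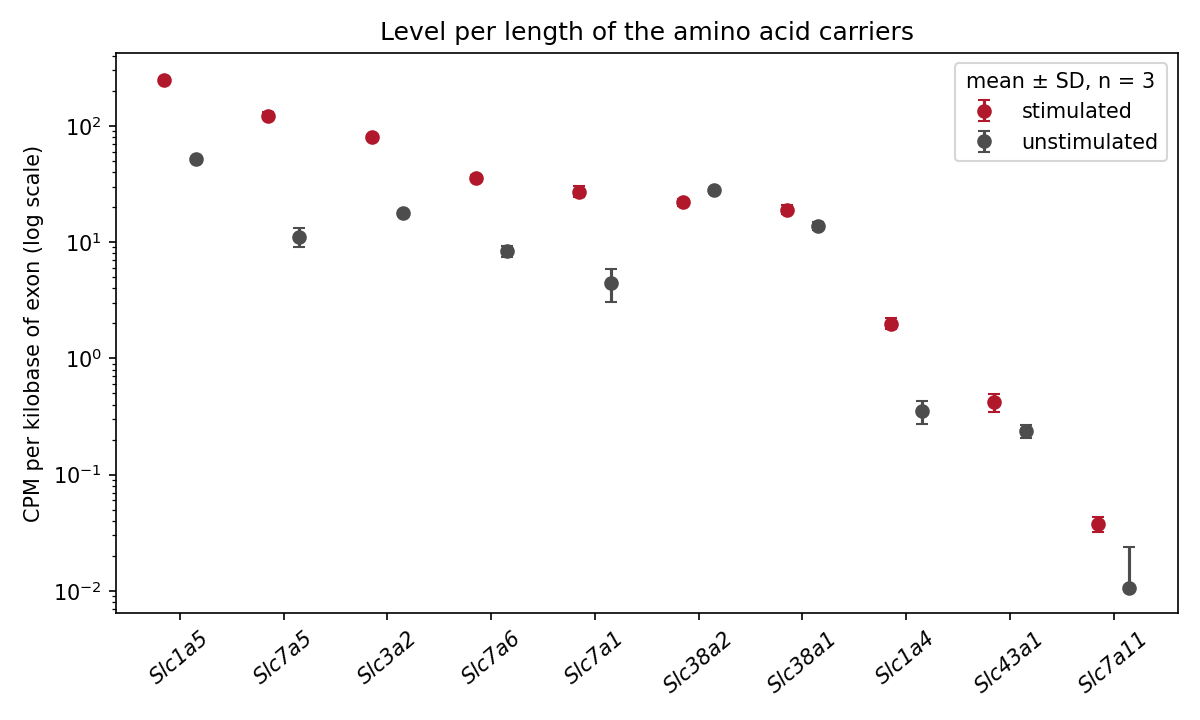
Level per length of the 10 transporters, in CPM per kilobase of exon on a log axis, as mean and SD of 3 libraries, with stimulated cells in red left of unstimulated cells in grey. Where the SD exceeds the mean (Slc7a11 in unstimulated cells) only the upper bar is drawn. Genes are ordered by their stimulated level, and the grey points do not follow that order: Slc38a2 has rank 2 in unstimulated cells.

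The make-up of the summed RNA of these 10 transporters, which leaves out all other carriers, shifted with it. The 10 transporters summed to 556 ± 18.4 CPM per kilobase in stimulated and 136 ± 5.78 CPM per kilobase in unstimulated cells. Of that sum Slc7a5 made up 22.0 ± 0.779% in stimulated and 8.14 ± 1.13% in unstimulated cells, and Slc1a5 44.4 ± 1.31% and 38.2 ± 1.09% in stimulated and unstimulated cells. Slc38a2 made up 3.95 ± 0.279% in stimulated and 20.6 ± 1.74% in unstimulated cells, and Slc38a1 3.41 ± 0.190% in stimulated and 10.2 ± 0.511% in unstimulated cells. The share of Slc38a1 was lower although its own level rose 1.37-fold, since the sum rose more. These shares rest on annotated length, which for Slc38a1 is 7266 bases with the longest transcript and 17236 bases with all exons.

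Of 32 other plasma membrane carriers listed, 10 passed the filter and 9 had no read in any library. Of the 10 tested, 5 rose, 3 fell and 2 were not called, beside 38.4% up and 39.1% down over all tested genes. The difference between these shares was not tested, and the median log2 fold change of the list was 0.38. Slc7a2 and Slc7a8 passed the filter through their stimulated libraries alone, and Slc6a19, Slc7a7 and Slc36a3 through their unstimulated ones alone. Their calls and the counts that hold them are therefore only a description. The rises were of Slc6a9 (GLYT1), a glycine carrier, with 4.98 ± 0.372 CPM in stimulated and 0.569 ± 0.125 CPM in unstimulated cells (log2 fold change 3.12, SE 0.22; edgeR, adjusted p = 1.32e-06), and of the arginine carriers Slc7a2 (CAT2) and Slc7a3 (CAT3). Slc7a2 had 113 reads over the stimulated libraries and 4 over the unstimulated ones, a ratio of 31.3 (95% exact counting interval 11.9 to 117), which became 83.6 (14.7 to 3333) on leaving out unstimulated replicate 1 and 20.8 (7.89 to 77.6) on leaving out replicate 3 of that group (log2 fold change 4.83, SE 0.54; edgeR, adjusted p = 3.21e-05). Slc7a3 had 1.61 ± 0.280 CPM in stimulated and 0.506 ± 0.0285 CPM in unstimulated cells (log2 fold change 1.66; edgeR, adjusted p = 0.000327). The other rises, named after their values were seen, were of the taurine carrier Slc6a6 (192 ± 9.89 CPM in stimulated and 148 ± 16.7 CPM in unstimulated cells; edgeR, adjusted p = 0.00489) and of Slc7a8 (LAT2), another light chain of Slc3a2 (1.00 ± 0.0270 CPM in stimulated and 0.158 ± 0.144 CPM in unstimulated cells; edgeR, adjusted p = 0.00122).

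The carriers that fell included a relative of Slc43a1. Slc43a2 (LAT4), a facilitated carrier of large neutral amino acids, had 6.24, 6.49 and 7.72 CPM in stimulated libraries, against 66.0, 78.1 and 79.2 CPM in unstimulated ones. The groups lay far apart, and the stimulated level was 10.9-fold lower (log2 fold change -3.45, SE 0.11; edgeR, adjusted p = 1.6e-08), beside the rise of Slc43a1. Slc6a19 (B0AT1), a neutral amino acid carrier known from gut and kidney, had 0.571 ± 0.251 CPM in stimulated and 3.90 ± 1.51 CPM in unstimulated cells (log2 fold change -2.76, SE 0.42; edgeR, adjusted p = 0.000293). Slc7a7 (y+LAT1), the close relative of Slc7a6, had 0.547 ± 0.177 CPM in stimulated and 1.01 ± 0.283 CPM in unstimulated cells (log2 fold change -0.88, SE 0.35; edgeR, adjusted p = 0.0446), a call lost in 9 of 16 alternatives (adjusted p between 0.0249 and 0.195). The uncalled genes, named after their values were seen, were Slc16a10 (16.7 ± 3.02 CPM in stimulated and 12.8 ± 2.14 CPM in unstimulated cells; edgeR, adjusted p = 0.0501) and Slc36a3, at 0.351 ± 0.157 CPM in stimulated and 0.390 ± 0.0680 CPM in unstimulated cells. Slc7a10, a further light chain, had 0 reads in all 6 libraries.

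**Figure D4:**
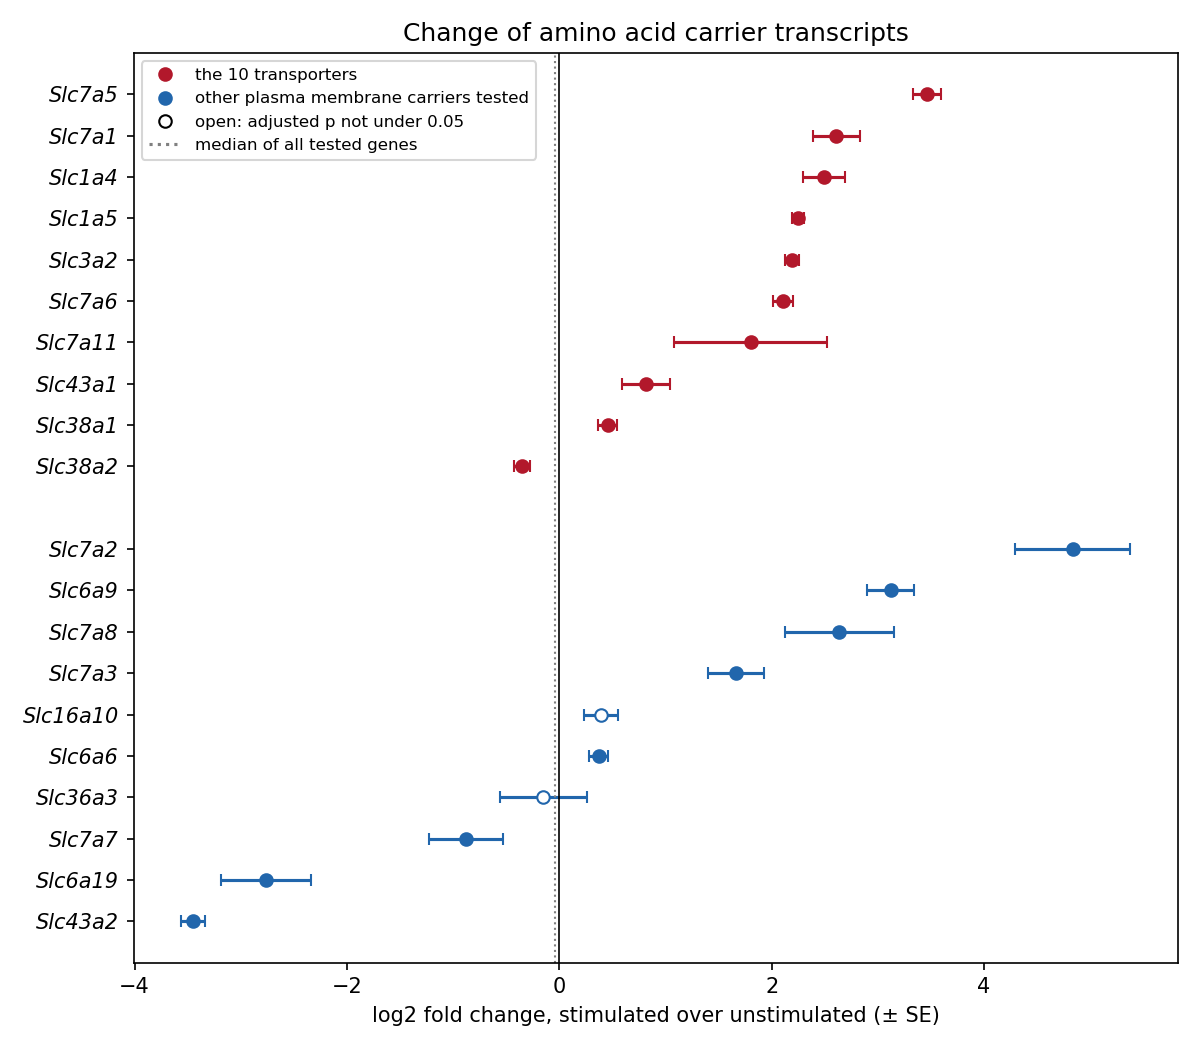
Log2 fold change of stimulated over unstimulated cells with SE, for the 10 transporters (red, upper block) and the 10 other plasma membrane carriers that were tested (blue, lower block). Open symbols did not pass edgeR's test, and the dotted line is the median of all tested genes, -0.043. All red points but Slc38a2 lie right of 0, whereas the blue points spread from -3.45 for Slc43a2 to 4.83 for Slc7a2, a fitted value that rests on 4 resting reads.

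Carriers of lysosomes and other inner membranes move amino acids into or out of these compartments, and some sense them. Of 14 tested, 3 rose, 8 fell and 3 were not called, beside 38.4% up and 39.1% down over all tested genes, with a median log2 fold change of -0.53. The cystine exporter Ctns fell to 2.24 ± 0.137 CPM in stimulated cells, against 16.5 ± 0.343 CPM in unstimulated cells (log2 fold change -2.88, SE 0.12; edgeR, adjusted p = 4.04e-08). The proton-coupled carrier Slc36a1 fell to 7.17 ± 0.133 CPM in stimulated cells, against 29.0 ± 1.75 CPM in unstimulated cells. Slc38a9, the lysosomal arginine sensor of mTORC1 and a relative of Slc38a1 and Slc38a2, fell to 10.4 ± 0.609 CPM in stimulated cells, against 30.2 ± 2.91 CPM in unstimulated cells. Those that rose were Mfsd12, a lysosomal cysteine importer (30.8 ± 0.347 CPM in stimulated and 10.8 ± 0.484 CPM in unstimulated cells), the peptide and histidine carrier Slc15a3 (28.4 ± 8.65 and 3.06 ± 0.857 CPM in stimulated and unstimulated cells) and Slc38a10 (182 ± 6.41 and 122 ± 4.02 CPM in stimulated and unstimulated cells). In edgeR the adjusted p ran from 6.92e-08 to 3.01e-05 over the last 5 genes. Slc17a9, which carries nucleotides, and Slc17a5, which carries sialic acid, are in this list and fell. Without them 3 rose and 6 fell of 12, beside 38.4% up and 39.1% down over all tested genes. The difference between these shares was not tested. In this list 13 of the 14 genes passed the filter in both groups, and Slc7a4 passed through the unstimulated libraries alone. The fall of Slc7a4 and the counts that hold it are therefore only a description.

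The list of enzymes acting on imported amino acids had 15 rises and 7 falls among 23 tested genes. This stood beside 38.4% up and 39.1% down over all tested genes. The median log2 fold change of the list was 1.48. Phgdh is in this list and rose, though it does not act on an amino acid. Mat2b, a regulatory subunit, is there too and fell. The counts of this list are therefore not of enzymes acting on amino acids alone. In this list 22 of the 23 passed the filter in both groups, and Arg1 passed through the unstimulated libraries alone. The fall of Arg1 and the counts that hold it are therefore only a description. The serine hydroxymethyltransferases Shmt1 and Shmt2 and the asparagine synthetase Asns had the smallest p among the rises. Shmt1 had 255 ± 20.6 CPM in stimulated and 6.19 ± 1.34 CPM in unstimulated cells, Shmt2 had 338 ± 3.85 CPM in stimulated and 53.7 ± 1.93 CPM in unstimulated cells, and Asns had 103 ± 1.25 CPM in stimulated and 6.15 ± 0.972 CPM in unstimulated cells. The mitochondrial branched-chain aminotransferase Bcat2 fell to 38.4 ± 1.36 CPM in stimulated cells, against 111 ± 8.47 CPM in unstimulated cells. Bckdha, a subunit of the enzyme that commits branched-chain amino acids to breakdown, fell to 2.78 ± 0.455 CPM in stimulated cells, against 14.0 ± 0.491 CPM in unstimulated cells. Mat2b, the regulatory subunit of methionine adenosyltransferase, fell to 65.0 ± 0.537 CPM in stimulated cells, against 137 ± 4.91 CPM in unstimulated cells. In edgeR their adjusted p ran from 5.23e-09 to 5.31e-07. Of the partners of these falling genes, named after their values were seen, Bcat1 and Mat2a rose and Bckdhb, the partner chain of Bckdha, was not called (3.11 ± 0.180 CPM in stimulated and 4.25 ± 1.06 CPM in unstimulated cells; edgeR, adjusted p = 0.0734). The cytosolic Bcat1 had 128 ± 8.90 CPM in stimulated and 1.78 ± 0.749 CPM in unstimulated cells, and the catalytic subunit Mat2a had 1116 ± 88.2 CPM in stimulated and 156 ± 23.0 CPM in unstimulated cells (edgeR, adjusted p = 7.09e-08 for Bcat1 and 6.45e-08 for Mat2a).

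The list for glutathione synthesis, which uses the cysteine that Slc7a11 and neutral carriers supply, had 8 rises, 5 falls and 2 uncalled genes of 15, beside 38.4% up and 39.1% down over all tested genes, with a median log2 fold change of 0.66. Of these genes 13 passed the filter in both groups, and Cth and Cbs passed through their stimulated libraries alone. The rises of Cth and Cbs, and the counts and median that hold them, are therefore only a description. Gclc, the rate-limiting subunit of glutathione synthesis, had 80.4 ± 5.48 CPM in stimulated and 36.3 ± 0.546 CPM in unstimulated cells. Named after their values were seen, its partner subunit Gclm was not called (33.1 ± 1.49 CPM in stimulated and 32.4 ± 3.68 CPM in unstimulated cells; edgeR, adjusted p = 0.797), and Gss, which completes glutathione, fell to 15.5 ± 1.6 CPM in stimulated cells, against 21.0 ± 1.31 CPM in unstimulated cells (edgeR, adjusted p = 0.00355). The thioredoxin reductase Txnrd1 had 296 ± 6.60 CPM in stimulated and 82.3 ± 5.44 CPM in unstimulated cells, and the glutathione reductase Gsr had 53.4 ± 3.41 CPM in stimulated and 22.1 ± 1.64 CPM in unstimulated cells. Gpx4, the peroxidase that detoxifies lipid peroxides with glutathione, fell to 36.3 ± 5.67 CPM in stimulated cells, against 157 ± 11.9 CPM in unstimulated cells. The surface enzymes Ggt5 and Ggt1, which split extracellular glutathione, fell to 3.25 ± 0.361 and 2.34 ± 0.708 CPM in stimulated cells, against 14.5 ± 1.87 and 9.75 ± 2.93 CPM in unstimulated cells. In edgeR the adjusted p of Gclc, Txnrd1, Gsr, Gpx4, Ggt5 and Ggt1 ran from 3.52e-08 to 0.000177. The reductases and the peroxidase use or recycle these thiols and do not make glutathione. Ggct, Chac1 and Chac2, which rose, do not make it either. The counts of this list are therefore not of synthesis alone. With replicate 2 dropped from both groups, 3 genes of the list fell.

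**Figure D5:**
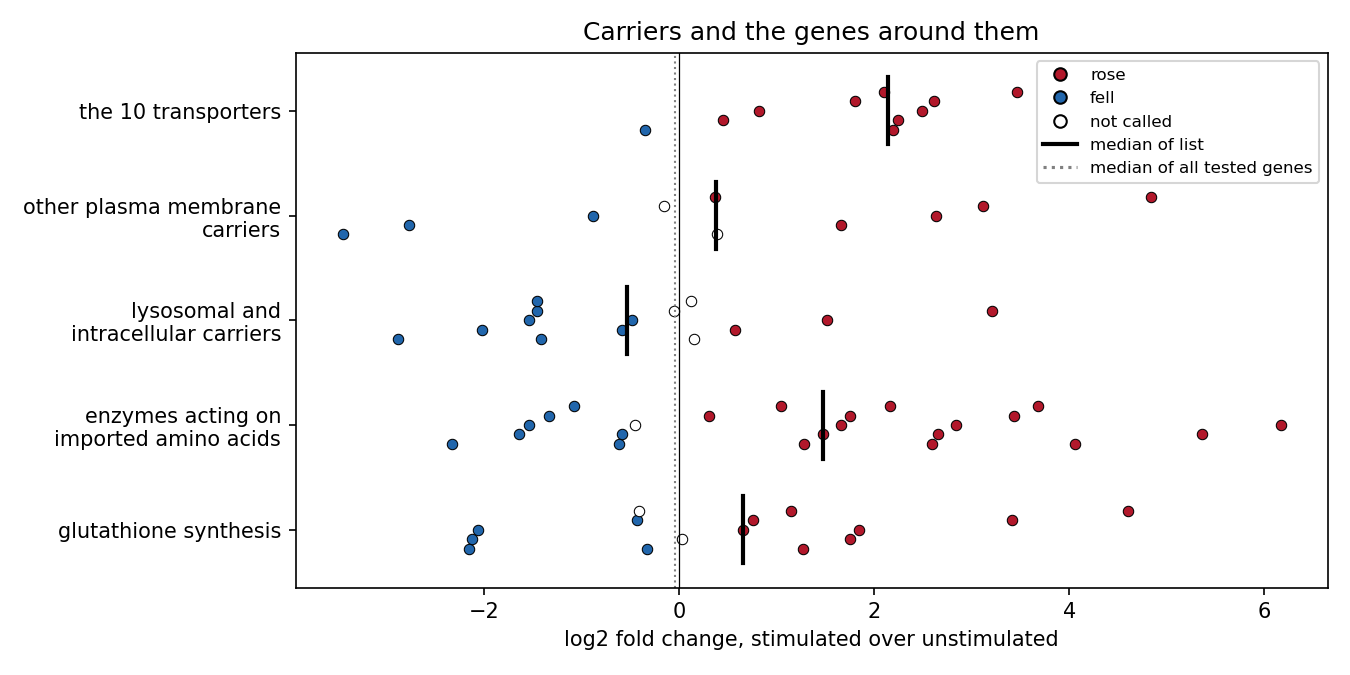
Log2 fold change of stimulated over unstimulated cells for every tested gene of 5 lists, with red points for genes that rose, blue for genes that fell and white for genes not called. Thick lines mark the median of each list, from -0.53 for lysosomal and intracellular carriers to 2.15 for the 10 transporters, and the dotted line the median of all tested genes. Points are offset vertically for clarity.

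Myc and Atf4, transcription factors known to act on several of these carrier genes, rose 8.05-fold and 2.75-fold. Whether they acted on the carriers here was not tested. Myc had 1359, 1314 and 1348 CPM in stimulated libraries, against 195, 159 and 146 CPM in unstimulated ones (edgeR, adjusted p = 2.54e-08). Atf4 had 337, 336 and 333 CPM in stimulated libraries, against 121, 115 and 129 CPM in unstimulated ones, without overlap (log2 fold change 1.46, SE 0.067; edgeR, adjusted p = 8.81e-08). The 5 genes whose levels over the 6 libraries lay closest to those of Slc7a5, among 8414 genes with a mean of at least 10 CPM, were Nop2, Lap3, Pprc1, Myo19 and Mybbp1a. Their centred log2 CPM differed from that of Slc7a5 by a root mean square of 0.0473, 0.0657, 0.0700, 0.0797 and 0.0819. With 2 groups of 3 libraries, genes with a like change and level spread score close, and the measure is given as a description.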

How the data were processed

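RNA was measured in 6 libraries, 3 per group. The authors deposited unnormalised read counts for Ensembl gene identifiers in a table with a column for each library. Software named in the submitters' processing notes was STAR 2.5.2a, HTSeq and DESeq2, and the build GRCm38, with no role stated. No source used here gives the annotation release, strand setting or read filters, so reads of overlapping genes on opposite strands cannot be told apart. RNA came from Qiagen columns and libraries from TruSeq reagents, per the labels' protocols. Groups and replicate numbers came from the labels, which give no batch.

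GENCODE M21 named 48058 of 48440 identifiers. Counts were tested with edgeR 4.0.16 in R 4.3.3 (TMM, filterByExpr, robust quasi-likelihood test, no term but group, two-sided, Benjamini-Hochberg over all 13314 tested genes, threshold 0.05), and glmTreat tested against a log2 fold change of 1. The SE was taken from the change and its F statistic. CPM used TMM-scaled library sizes. Depth ran from 29897720 to 30252923 reads per library. Within groups, pairs of libraries had dispersion indices of 9.41 to 37.6, where counting noise gives about 1. Fold changes between means are of mean CPM. Count intervals are exact at 95%. Ratios of 2 members used reads plus 0.5.

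Libraries of the same replicate number deviated together from their group means over 11586 genes (correlations 0.471, 0.156 and 0.506). The main tests did not use this pairing. It entered only in alternatives, the replicate block and the sign-flip tests of the ratios. The labels do not say what a number marks.

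The 10 transporters, the 4 other lists and the motifs were chosen with earlier results of these data known, and no list is independent evidence. By rule the text names the 10 transporters, Myc, Atf4 and, in each other list, the 3 smallest p that rose and that fell. The rule adds the 5 genes nearest to Slc7a5, leaving out predicted-gene names. Further genes of the lists are named outside this rule, with their values already seen. A comparison of protein sequences had been planned and was not run. Alternatives were RLE, library size alone, library sizes without the 20 most abundant genes, no filter, 1 CPM in 3 libraries, DESeq2 1.42.0, limma-voom (limma 3.58.1), the replicate block, an adjusted p of 0.01, and leaving out each library or replicate number. On simulated counts the pipeline was tested for recovery of known changes. Other software was matplotlib 3.10.9, scipy 1.17.1, numpy 2.4.6, pandas 2.3.3 and Python 3.11.15.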

Additional observations from a re-analysis of the deposited data

How the results depend on the processing

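The 6 transporters that rose past 2-fold kept their direction and their call under all 17 alternatives run for each, with log2 fold changes of 3.31 to 3.62 for Slc7a5, 2.04 to 2.23 for Slc3a2, 2.10 to 2.29 for Slc1a5, 2.32 to 2.62 for Slc1a4, 2.40 to 2.87 for Slc7a1 and 1.95 to 2.22 for Slc7a6. Slc38a1 did so too (0.304 to 0.53). With the replicate block 9 transporters rose and 1 fell, and it changed no call of a gene named by the rule, while 8 enzymes fell in place of 7 and over all genes it called 5326 up and 5516 down, against 5113 and 5207 without it. Leaving out libraries or replicate numbers gave 7 to 9 transporters up, 0 to 1 down and 6 to 7 up past 2-fold. The glutathione genes that fell then numbered 3 to 5, and the log2 ratio of Slc7a11 to Slc7a5 differed by -2.01 to 0.077. With same-numbered libraries as pairs, an alternative chosen after seeing the data, the ratio of Slc7a5 to Slc3a2, of Slc38a1 to Slc38a2 and of Slc7a1 to Slc7a6 was higher in the stimulated library of 3 of 3 pairs (exact sign-flip test, p = 0.25, the smallest possible). Slc7a11 could not be tested with the filter of 1 CPM. It lost its call with library size alone (adjusted p = 0.0592), without the 20 most abundant genes (0.0606), with DESeq2 (0.0577) and in 7 leave-out fits.

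With the longest transcript as length, levels per kilobase in stimulated and unstimulated cells were 101 and 22.2 CPM for Slc3a2, 366 and 77.0 for Slc1a5, 45.0 and 32.9 for Slc38a1, 31.7 and 40.4 for Slc38a2, 43.6 and 7.14 for Slc7a1, 43.5 and 10.1 for Slc7a6, and 0.607 and 0.344 for Slc43a1, and 0.057 for Slc7a11 in stimulated cells. Slc38a1 then held rank 4 in stimulated cells in place of rank 7, though Slc7a1 and Slc7a6 were within their summed SD of it. In only the 150 bases before the start, 1 member (Slc7a11) had a C/EBP-ATF core, against 2 in the whole window, since the match in Slc1a4 crosses the start. Low read counts limit Slc7a11 and Slc7a2. For Slc7a10, with 0 reads, absence and a level under detection cannot be told apart.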
